A study of Mus musculus with 28 samples.

Results

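Interferon-stimulated genes were followed in regulatory T (Treg) cells that had lost a subunit of mitochondrial complex III or had met an inhibitor of the respiratory chain. The set holds 38 named genes, matched by Ensembl ID to symbol among the 43430 gene IDs of each count table, and a member counted in a table where its mean over all libraries was at least 1 CPM (counts-per-million). That left 36 members in the Treg cells of 3-week-old mice, 37 in those of chimeras and 35 in the in vitro cells, with 34 shared by all 3 tables. Ifi44 and Oas2 fell below the level in 3-week-old mice, Ifitm1 in chimeras, and Ifi44, Ifitm1 and Mx1 in vitro. All members above it were tested in both tables of mice, while 28 of 35 had enough counts to be tested in vitro.

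RNA was sequenced from CD4+ YFP-Foxp3+ CD25+ cells of C57BL/6NJ mice in 28 libraries. The genotypes were RISP WT and RISP KO, where RISP is the Rieske iron-sulfur subunit of complex III, encoded by Uqcrfs1. RISP_WT and RISP_KO cells came from 3-week-old animals, and RISP_Chimera_WT and RISP_Chimera_KO cells from chimeras 8 to 12 weeks old, with n = 4 libraries in each group. The in vitro groups were RISP WT cells of 3-week-old mice, n = 3 libraries each, left untreated or given 1 µM piericidin (a complex I inhibitor), 500 µM 3-NPA (3-nitropropionic acid, a complex II inhibitor) or 1 µM antimycin A (a complex III inhibitor). All groups share the sort on the YFP-Foxp3 reporter. The labels do not give the organ, the driver of the deletion, how the chimeras were made, the time in culture or whether replicates were separate mice, so the p-values measure the spread between libraries, which may be technical.

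Interferons are secreted antiviral proteins. Type I and type III interferons act through receptors that activate a transcription factor complex holding STAT2 and IRF9, which binds interferon-stimulated response elements (ISRE) in promoters. Interferon gamma, the type II interferon, acts mainly through gamma-activated sites (GAS). Many of the GTPases, such as guanylate-binding proteins (GBP) and immunity-related GTPases (IRG), respond strongly to interferon gamma, while genes such as Ifit1, Mx1 and Rsad2 are typical of the type I response. In Treg cells interferon signals are known to alter stability and suppressive function.

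The promoters of 7 members, each called in RISP_KO or with an inhibitor, and that of Isg15, which was not called, are shown because they carry the letters of these sites. Each line gives 100 bases directly before the gene's start in RefSeq on GRCm38.p6, 5′ to 3′ on the gene's strand, with matches to ISRE (GAAANNGAAA) or GAS (TTCNNNGAA), searched on both strands, in capitals.
Ifitm2, chr7:140955962-140956061, minus strand: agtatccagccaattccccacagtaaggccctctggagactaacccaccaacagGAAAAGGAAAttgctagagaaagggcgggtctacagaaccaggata
Gbp2, chr3:142620563-142620662, plus strand: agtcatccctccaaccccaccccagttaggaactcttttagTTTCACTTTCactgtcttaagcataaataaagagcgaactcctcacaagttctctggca
Gbp3, chr3:142559944-142560043, plus strand: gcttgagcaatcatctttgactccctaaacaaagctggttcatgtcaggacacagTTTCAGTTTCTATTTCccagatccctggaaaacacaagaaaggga
Gbp7, chr3:142530236-142530335, plus strand: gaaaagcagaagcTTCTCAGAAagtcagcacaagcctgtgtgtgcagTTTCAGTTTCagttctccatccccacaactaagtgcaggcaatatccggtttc
Igtp, chr11:58199456-58199555, plus strand: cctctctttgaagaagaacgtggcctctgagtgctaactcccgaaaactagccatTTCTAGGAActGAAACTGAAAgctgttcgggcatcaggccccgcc
Irgm1, chr11:48871421-48871520, minus strand: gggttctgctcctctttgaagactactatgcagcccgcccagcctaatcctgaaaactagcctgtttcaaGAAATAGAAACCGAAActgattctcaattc
Irf1, chr11:53769914-53770013, plus strand: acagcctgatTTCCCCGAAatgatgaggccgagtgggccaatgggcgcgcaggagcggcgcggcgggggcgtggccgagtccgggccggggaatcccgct
Isg15, chr4:156200819-156200918, minus strand: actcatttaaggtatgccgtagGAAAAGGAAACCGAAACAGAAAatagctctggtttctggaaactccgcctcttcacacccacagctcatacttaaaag
The capitals mark an ISRE match in Ifitm2 and Gbp2, 2 overlapping ISRE matches in Gbp3 and Irgm1, and 3 overlapping ones in Isg15. Gbp7 and Igtp hold both motifs, and Irf1 holds a GAS match alone.

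The table of promoters held 30 of the 38 members. Within the window from 250 bases before to 50 bases after the start, 18 of 30 members (60.0%) held an ISRE match in any of their windows, against 3.99% of 27025 genes counted the same way and 3.44% of the 32851 single windows. A GAS match was present in 9 of 30 members (30.0%), against 9.55% of genes and 8.3% of windows. By role, the ISRE letters were found in 6 of 7 GTPases, 3 of 4 membrane restriction factors, 6 of 9 antiviral effectors, 1 of 1 nucleic acid sensor, 1 of 5 regulators and 1 of 4 transcription factors. A match describes letters in a window and is not a measured binding site.

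Depth per library was 28.4 to 50.8 M counts for 3-week-old mice, 20.4 to 31.0 M for chimeras and 2.71 to 3.45 M for the in vitro cells, so that a count of 0 allows up to 0.105, 0.147 and 1.11 CPM in the shallowest library of each (counting error only). The libraries carried Treg markers throughout, by the summed level of 8 of them. In 3-week-old mice it was 2890 to 3458 CPM in RISP_WT and 3072 to 3651 in RISP_KO. In chimeras it was 3234 to 3585 CPM in wild type and 2851 to 3273 in knockout. In vitro it was 7162 to 7295 CPM untreated, 7024 to 7279 with piericidin and 7116 to 7185 with 3-NPA. With antimycin A it was lower, at 6411 to 6984 CPM. Uqcrfs1 was at 175 ± 17.4 CPM (SD, n = 4) in RISP_WT and 6.14 ± 0.92 in RISP_KO (log2 fold change -4.83 ± 0.14 SE, adjusted p = 2.19e-08, edgeR). In chimeras it was at 81.6 ± 6.37 CPM in wild type and 6.75 ± 3.07 in knockout (-3.60 ± 0.23, adjusted p = 1.26e-05), so the labels and the targeted gene matched in every library.

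Per kilobase of exon, the most abundant members in RISP_WT cells were the GTPases Ifi47 (244.9 ± 20.1 CPM per kb, SD) and Igtp (220.0 ± 13.1), ahead of the transcription factor Irf1 (91.4 ± 8.00). The lowest were Mx1 (0.273 CPM per kb), Oas2 (0.215), Ifitm1 (0.179) and Ifi44 (0.0561). Igtp (136.6 ± 9.63 CPM per kb), Ifi47 (120.4 ± 15.2) and Irf1 (77.0 ± 7.94) also stood first in RISP_Chimera_WT, where Igtp and Ifi47 differed by about their spread.

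In 3-week-old mice, loss of RISP went with higher RNA of the interferon-inducible GTPases and of the IFITM membrane proteins. Of 36 members, 13 were higher in RISP_KO and 0 were lower at an adjusted p under 0.05 (edgeR quasi-likelihood F-test, Benjamini-Hochberg over 13832 genes), while 4.78% of all genes tested were called higher and 5.08% lower. The called members were 7 of 8 GTPases, 3 of 4 membrane restriction factors, 1 of 4 transcription factors, 1 of 10 antiviral effectors, 1 of 3 nucleic acid sensors and 0 of 7 regulators. The median log2 fold change was 0.51 over the members and 0 over all genes, and 32 members were above 0 and 4 below. In 10 members every RISP_KO library was above every RISP_WT library, as in 7.89% of all genes. Ifitm1 met the level of 1 CPM through the knockout libraries alone, so it had to differ and its call is no support. Without it 12 of 35 members were higher, 2 of 3 membrane factors among them, the median was 0.50, and 9 members had every knockout library above every wild-type one. These are bulk samples, in which a changed share of cells of a type and a change in RNA per cell cannot be told apart.

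**Figure D1:**
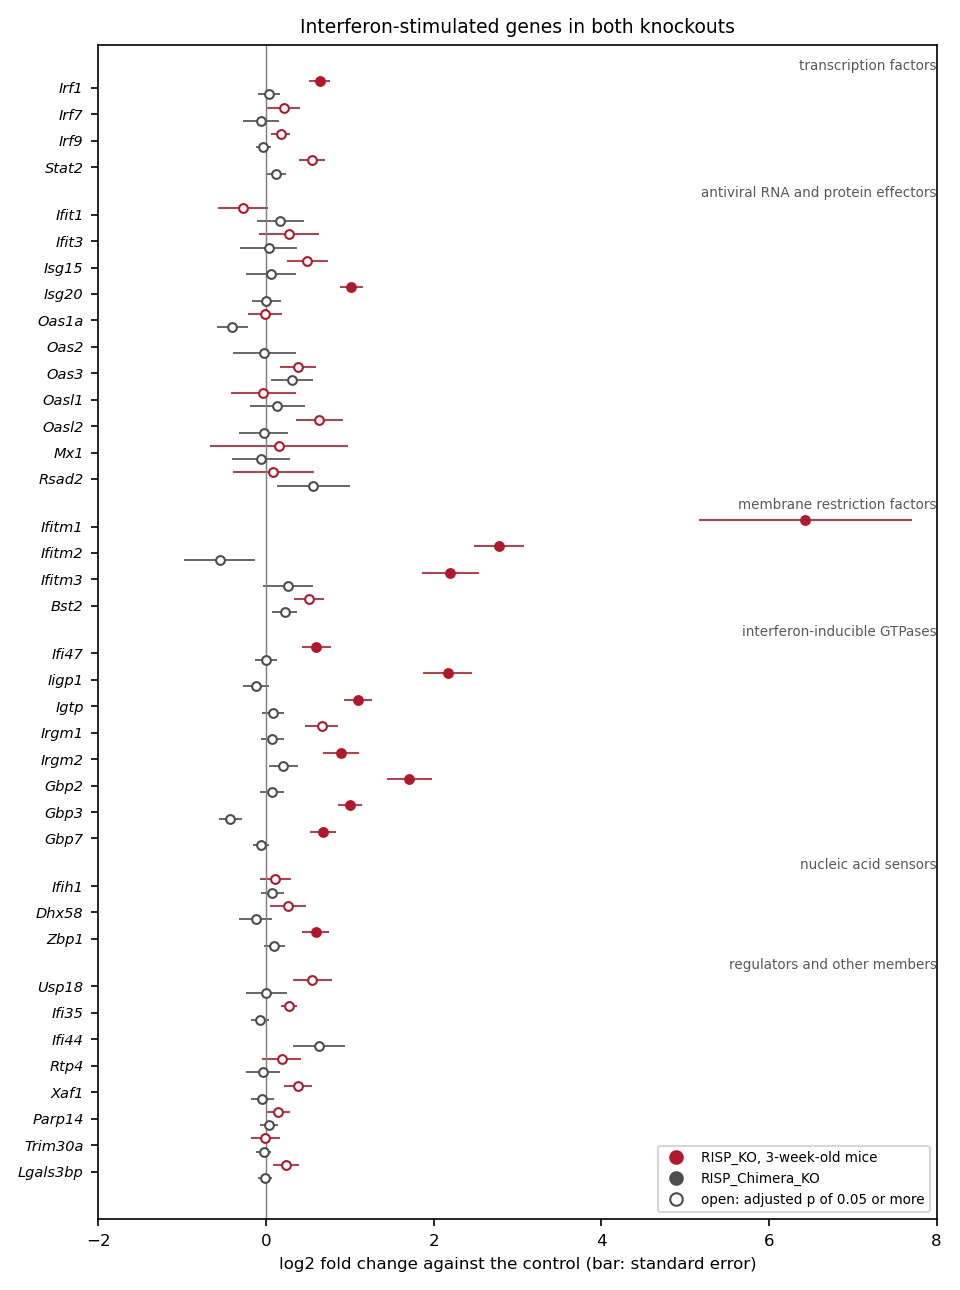
Log2 fold change of each member in RISP_KO against RISP_WT and in RISP_Chimera_KO against RISP_Chimera_WT, grouped by role. Points are edgeR estimates, bars 1 SE, and filled points have an adjusted p under 0.05: 13 in 3-week-old mice, all to the right of 0, and 0 in chimeras.

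The IFITM proteins sit in cell membranes and block the entry of enveloped viruses. Ifitm2 (chromosome 7, 140954839 to 140955961, mm10) was at 9.71, 10.0, 8.38 and 10.3 CPM in RISP_WT replicates 1 to 4 and at 42.1, 38.5, 104.9 and 78.2 CPM in RISP_KO. The lowest knockout library was well above the highest wild-type one, and the log2 fold change was 2.78 ± 0.30 (adjusted p = 4.28e-04). Its neighbour Ifitm3 was at 6.68, 8.08, 11.3 and 7.89 CPM in RISP_WT and at 14.7, 40.2, 50.6 and 50.4 CPM in RISP_KO (2.20 ± 0.34, adjusted p = 0.0028). RISP_KO replicate 1 was the lowest of its group for Ifitm3, but still above all wild-type libraries.

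Ifitm1 was close to absent in wild type, with 4, 1, 8 and 22 counts. In RISP_KO it had 21, 78, 1092 and 1337 counts, or 0.587, 2.74, 30.7 and 38.7 CPM. Replicates 3 and 4 therefore carried nearly all of its signal, and the log2 fold change of 6.43 ± 1.27 (adjusted p = 0.00964) depends on near-zero wild-type counts. The fourth membrane factor, Bst2 (tetherin, which holds budding virus at the cell surface), was at 57.5 to 72.4 CPM in RISP_WT and 71.7 to 138.8 CPM in RISP_KO, with overlap between the groups (0.52 ± 0.18, adjusted p = 0.0992). The 3 Ifitm genes are close copies within 7:140954839-141010770, and how reads shared between them were counted is not given in the sources used here, so the split between them is uncertain.

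**Figure D2:**
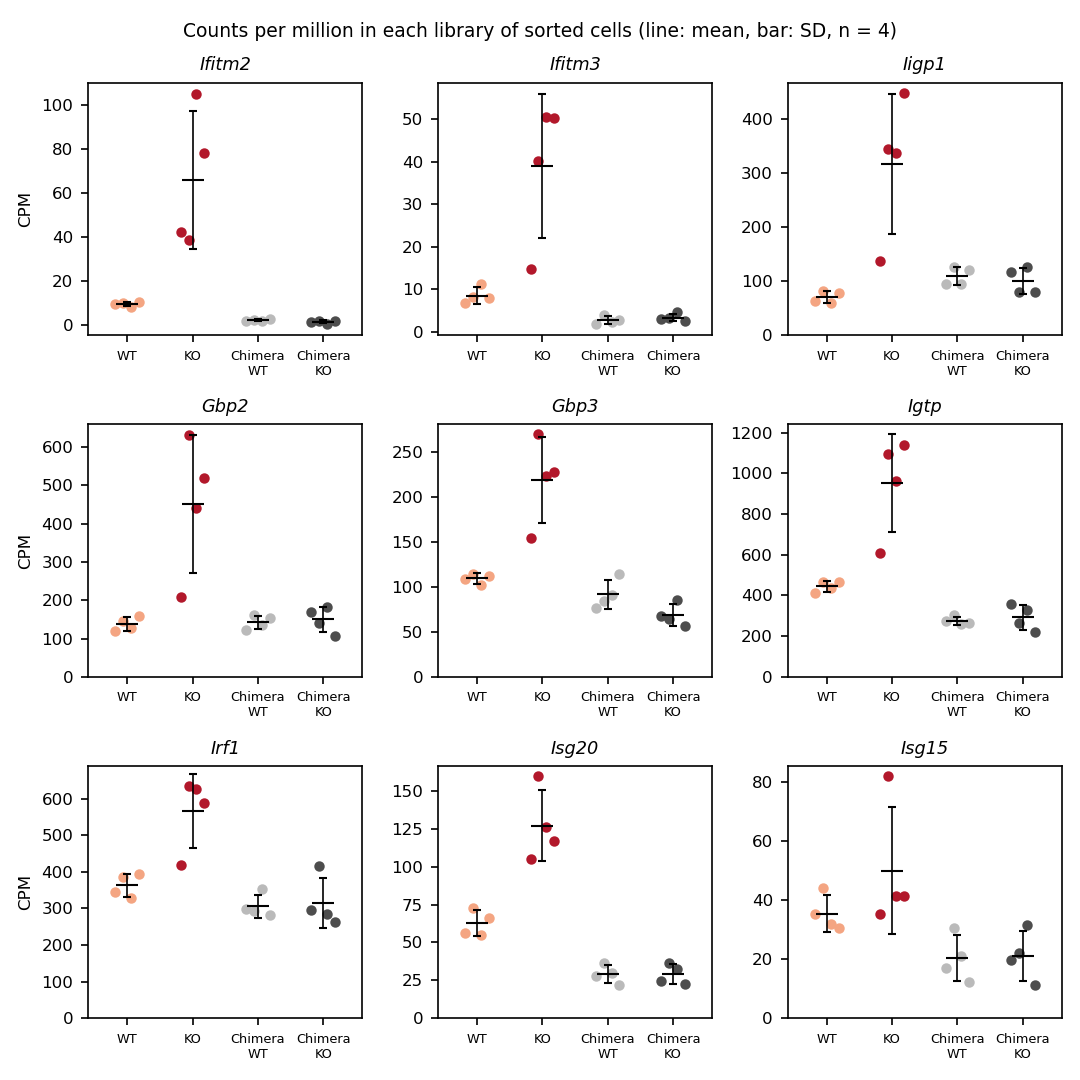
CPM on scaled library sizes of 9 members in each of the 16 libraries of sorted cells; points are libraries and bars are means ± SD (n = 4). In Ifitm2 the 4 RISP_KO libraries sit between 38.5 and 104.9 CPM, above the RISP_WT libraries at 8.38 to 10.3, while the 2 chimera groups overlap.

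Among the GTPases, Iigp1 (Irga6, an IRG protein that attacks the membrane around intracellular parasites) was at 62.6, 82.7, 59.0 and 77.8 CPM in RISP_WT and at 137.3, 345.3, 337.5 and 447.0 CPM in RISP_KO. The groups did not overlap, although replicate 1 of the knockout was well below the other 3. The log2 fold change was 2.17 ± 0.29 (adjusted p = 0.00127). Gbp2, a guanylate-binding protein that coats pathogen vacuoles, was at 119.6, 145.7, 126.6 and 158.4 CPM in RISP_WT and at 208.7, 632.5, 442.0 and 520.0 CPM in RISP_KO (1.71 ± 0.27, adjusted p = 0.00295). Here too replicate 1 was the lowest knockout library and above every wild-type one.

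Igtp (Irgm3), an IRG protein that regulates the others, was at 410.1, 464.9, 438.0 and 466.2 CPM in RISP_WT and at 610.3, 1093, 963.1 and 1141 CPM in RISP_KO (1.10 ± 0.16, adjusted p = 0.00228). Gbp3 was at 109.0, 114.7, 101.8 and 112.2 CPM in RISP_WT and at 154.3, 270.0, 223.0 and 228.0 CPM in RISP_KO (1.00 ± 0.14, adjusted p = 0.00177). Both separated the groups fully. The remaining GTPases had smaller changes whose libraries overlapped, with replicate 1 of RISP_KO within the wild-type range for all of them. The log2 fold changes were 0.69 ± 0.15 for Gbp7 (adjusted p = 0.0187), 0.90 ± 0.22 for Irgm2 (adjusted p = 0.027), 0.60 ± 0.17 for Ifi47 (adjusted p = 0.0488) and 0.67 ± 0.20 for Irgm1 (adjusted p = 0.0617, not called). Gbp3 and Gbp7 overlap Gbp2b on the same strand, and Igtp overlaps Irgm2, so reads may have been divided between these pairs.

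Transcription factors of the pathway moved less. Irf1, which binds ISRE letters and is itself induced by interferon gamma, was at 344.9, 387.2, 328.1 and 393.0 CPM in RISP_WT and at 418.4, 635.6, 625.6 and 587.4 CPM in RISP_KO (0.64 ± 0.13, adjusted p = 0.0107), with no overlap. Stat2 did not pass (0.55 ± 0.16, adjusted p = 0.0555), nor did the type I amplifier Irf7 (0.21 ± 0.20, adjusted p = 0.555) or Irf9 (0.18 ± 0.11, adjusted p = 0.367).

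The antiviral effectors typical of the type I response mostly stayed within their spread. Isg20, an exonuclease that degrades viral RNA, was the exception at 56.4, 72.9, 54.6 and 66.1 CPM in RISP_WT and 105.0, 159.4, 125.8 and 116.9 CPM in RISP_KO (1.02 ± 0.14, adjusted p = 0.00136). Isg15, a ubiquitin-like modifier, was at 35.2, 44.2, 31.9 and 30.5 CPM against 35.4, 81.9, 41.6 and 41.3 CPM, so that only replicate 2 of RISP_KO rose clear of the wild-type range (0.50 ± 0.24, adjusted p = 0.235). Log2 fold changes were -0.27 for Ifit1, which binds foreign RNA caps, 0.28 for Ifit3, 0.09 for Rsad2 (viperin), 0.16 for Mx1, -0.01 for Oas1a, 0.38 for Oas3, -0.03 for Oasl1 and 0.64 for Oasl2, none called.

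The sensor Zbp1, which detects Z-form nucleic acid, was higher in RISP_KO (0.59 ± 0.16, adjusted p = 0.0427), whereas the RNA sensors Ifih1 (0.11) and Dhx58 (0.26) did not pass. Among the 7 regulators, the log2 fold changes ran from -0.01 for Trim30a to 0.56 for Usp18, a protease that removes ISG15 and damps type I signalling. Xaf1 had every knockout library above every wild-type library, yet its change of 0.38 ± 0.16 gave an adjusted p of 0.174.

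RISP_KO replicate 1 was the lowest of its group in 29 of 36 members, including 8 of 8 GTPases, and replicate 2 was the highest in 25 of 36, including 8 of 10 effectors. Without RISP_KO replicate 1 the count of called members was 19, adding Bst2, Irgm1, Oas3, Oasl2, Stat2 and Usp18. Without any other library it was 9 to 11. Gbp2, Gbp3, Ifitm1, Ifitm2, Ifitm3, Igtp, Iigp1, Irf1 and Isg20 were called in each of the 8 leave-one-out fits. Ifi47, Irgm2 and Zbp1 were called in only 1 of the 8, that without RISP_KO replicate 1. Gbp7 was lost in 3, those without RISP_WT replicate 1 or 3 or RISP_KO replicate 2. Across all settings the adjusted p reached 0.0881 for Irgm2, 0.128 for Zbp1 and 0.067 for Gbp7, and Ifi47 was lost in 8 of 14.

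**Figure D3:**
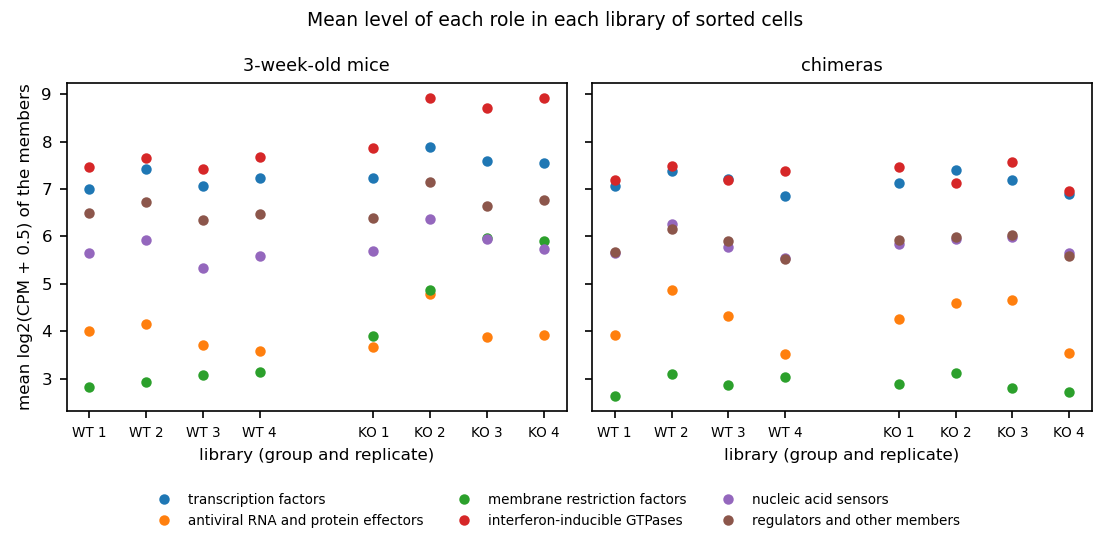
Mean log2(CPM + 0.5) over the members of each role in every library of sorted cells, 1 point per role and library. GTPases lie at 7.43 to 7.67 in RISP_WT and 7.86 to 8.92 in RISP_KO, and membrane factors, Ifitm1 included, at 2.83 to 3.15 and 3.91 to 5.97; effectors overlap (3.58 to 4.16 and 3.67 to 4.78).

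The mean log2(CPM + 0.5) of the GTPases was 7.43 to 7.67 in RISP_WT and 7.86, 8.92, 8.70 and 8.92 in RISP_KO replicates 1 to 4. The 3 membrane factors other than Ifitm1 were at 4.02 to 4.27 against 5.17 to 6.31, also with no overlap. With Ifitm1, which had to differ, the values were 2.83 to 3.15 against 3.91 to 5.97. Effector means overlapped, at 3.58 to 4.16 against 3.67 to 4.78.

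Other genes of the interferon pathway were read from lists by function. Antigen presentation genes were higher in 11 of 19 and lower in 0 (against 4.78% and 5.08% of all genes), with a median of 0.41. They included Nlrc5, the activator of MHC class I genes, at 112 ± 7.73 CPM in RISP_WT and 191 ± 9.23 in RISP_KO (0.76 ± 0.08, adjusted p = 3.41e-04), the immunoproteasome subunit Psmb9 (0.79 ± 0.10, adjusted p = 8.49e-04) and the peptide transporter Tap1 (0.61 ± 0.08, adjusted p = 0.00131). Signalling genes and brakes were higher in 7 of 15 and lower in 1, beside the same shares of all genes. Among these were the brakes Socs3 (1.27 ± 0.17, adjusted p = 0.00108) and Cish (0.73 ± 0.08, adjusted p = 4.57e-04) and the factor Irf8 (1.24 ± 0.15, adjusted p = 7.01e-04), while the receptor kinase Tyk2 was lower (-0.40 ± 0.09, adjusted p = 0.0166).

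Of 5 ligand and receptor genes tested, 0 were higher and 2 lower, against 4.78% and 5.08% of all genes. Ifnar1, a chain of the type I interferon receptor, was at 288 ± 13.7 CPM in RISP_WT and 209 ± 16.8 in RISP_KO (-0.46 ± 0.08, adjusted p = 0.0048). Ifng, which encodes interferon gamma, was at 2.88 ± 0.78 and 0.825 ± 0.56 CPM (-1.81 ± 0.47, adjusted p = 0.036), a call lost in 6 of 14 settings.

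Ifnb1, Ifna1, Ifna2, Ifna4, Ifnl2 and Ifnl3 had 0 counts in every library of 3-week-old mice and of chimeras, which allows up to 0.147 CPM each in the shallowest library. The sensing genes upstream of interferon were higher in 0 of 16 and lower in 2, the DNA sensor Aim2 (-0.96 ± 0.14, adjusted p = 0.00184) and Irf5 (-0.90 ± 0.15, adjusted p = 0.00368). Over all genes 4.78% were higher and 5.08% lower, and in a list this small such counts are near the background. Of 60 further interferon-stimulated genes 8 were higher, against 4.78% of all genes, among them the GTPases Tgtp1 (1.41 ± 0.26, adjusted p = 0.00698) and Gbp11 (3.25 ± 0.63, adjusted p = 0.00865). Gbp11 was at 0.0986 ± 0.0763 CPM in RISP_WT and 0.995 ± 0.374 in RISP_KO. It passed the filter on low counts through the knockout libraries alone, so it had to differ and its call is no support. In the same list 2 were lower, a count no higher than the 5.08% of all genes, among them the chemokine Ccl5 (-1.87 ± 0.39, adjusted p = 0.0126). Tgtp1 has a near-identical copy, so its reads may be shared.

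Markers of other cells, and of T cells as a whole, also moved with the knockout in 3-week-old mice. The summed level of 14 macrophage markers was 18.1 to 58.4 CPM in RISP_WT and 7.92 to 16.4 CPM in RISP_KO, with Fcgr1 at 0 in the latter. The sum of 8 natural killer markers was 10.3 to 16.1 against 49.6 to 66.8 CPM, led in RISP_KO by Gzma (1.13 to 34.4 CPM in the mean) and Eomes (1.59 to 13.5 CPM), while Ncr1 was at 0.148 CPM in RISP_WT and 0 in RISP_KO, and Klra8 and Klra4 were at 0 in both groups. Of the other 3, Prf1 was at 6.32 and 9.62 CPM, Klrb1c at 3.92 and 2.91 and Klrc1 at 0.229 and 0.502 in the mean. The sum of 6 plasma cell markers was 221.5 to 272 CPM against 377.3 to 461 CPM, with medians of 240.9 and 382.8. Nearly all of it was Xbp1 (213.8 to 379.5 CPM in the mean), so the rise lay in that gene and not in the list as a whole. The 9 T cell markers, which belong to the sorted cells themselves, summed to 7995 to 8292 against 6981 to 7614 CPM. B cell markers summed to 783 to 966 against 587 to 779 CPM, nearly all Ighm. Plasmacytoid dendritic cell markers summed to 81.3 to 109.8 against 93.0 to 160.7 CPM, with medians of 101.5 and 120.9. The rise lay in Bst2 (67.4 to 96.4 CPM in the mean), itself a member. The sum of 8 conventional dendritic cell markers was 601 to 781 against 831 to 1059 CPM. Nearly all of it was Ccr7 (699.6 to 922.5 CPM in the mean), so the rise lay in that gene. Clec9a was at 0 in both groups and Cd209a at 0 in RISP_KO. Their part in the results was not tested.

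In chimeras no member passed the test. Of 37 members 0 were called by edgeR and 0 by DESeq2, 2 had an unadjusted p under 0.05, and 0.708% of all genes were called. The median log2 fold change was 0.01, with 21 members above 0 and 16 below. In 0 members were the libraries of the groups fully apart, as they were in 7.5% of all genes. The 3 members with the smallest p were Gbp3, Oas1a and Ifi44.

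Gbp3 was at 76.9, 84.0, 91.0 and 114.7 CPM in RISP_Chimera_WT and at 67.8, 64.2, 85.1 and 56.0 CPM in RISP_Chimera_KO (-0.43 ± 0.14, adjusted p = 0.21). Oas1a, which makes the messenger that activates RNase L, was at 12.8, 16.1, 15.2 and 11.8 CPM against 9.32, 12.9, 12.4 and 7.68 CPM (-0.40 ± 0.18, adjusted p = 0.384). Ifi44 was at 2.15, 6.03, 5.46 and 3.16 CPM against 5.81, 5.76, 9.13 and 5.49 CPM (0.63 ± 0.31, adjusted p = 0.413). The groups overlapped in all 3.

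The members that were highest above wild type in 3-week-old mice read as follows in chimeras. Ifitm1 was below the level of 1 CPM. Ifitm3 was at 2.76 ± 0.92 CPM (SD, n = 4) in wild type and 3.32 ± 0.87 in knockout. Ifitm2 was at 1.66, 2.02, 2.01 and 2.92 CPM in wild type and 1.46, 1.96, 0.486 and 1.97 CPM in knockout (-0.55 ± 0.42). Iigp1 was at 95.0, 126.6, 94.9 and 120.1 CPM against 117.1, 80.5, 125.6 and 79.8 CPM (-0.12 ± 0.15). Gbp2 was at 122.8, 160.4, 135.7 and 152.4 CPM against 168.1, 140.3, 183.5 and 107.0 CPM (0.07 ± 0.14). In Iigp1 and Gbp2 the knockout libraries split, with replicates 1 and 3 above replicates 2 and 4.

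Many members were highest or lowest in the same library of a chimera group. RISP_Chimera_WT replicate 2 was the highest of its group in 34 of 37 members and replicate 4 the lowest in 22, and RISP_Chimera_KO replicate 4 was the lowest of its group in 33 of 37. Mean log2(CPM + 0.5) of the effectors ran from 3.53 to 4.88 in wild type and 3.55 to 4.66 in knockout. Without RISP_Chimera_KO replicates 2 and 4 the count was 1, with Irgm2 called higher. Macrophage markers summed to 26.2 to 62.4 CPM in wild type and 34.0 to 96.0 in knockout, and natural killer markers to 9.18 to 13.8 and 15.6 to 22.2 CPM. T cell markers summed to 4136 to 4554 CPM in wild type and 4011 to 4104 in knockout. The part of these markers was not tested.

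Of the pathway genes outside the set, antigen presentation genes were called in 0 of 19 in chimeras, ligands and receptors in 0 of 5 and sensing genes in 0 of 17. With 0.708% of all genes called, lists of this size would hold about 0 calls, so these counts are near the background. Of 15 signalling genes 2 were lower, Socs3 (-0.70 ± 0.12, adjusted p = 0.021) and Irf4 (-0.59 ± 0.12, adjusted p = 0.0496), and of 61 further interferon-stimulated genes 1 was lower, Serpina3g (-1.88 ± 0.31, adjusted p = 0.0173). These calls were lost in 4, 9 and 3 of 15 settings.

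The difference between the 2 knockout effects was then tested itself, as the interaction of genotype and setting over the 16 libraries of sorted cells. Of 35 members, 8 had a more negative effect in chimeras and 0 a more positive one, against 2.04% of all genes called more negative. The difference was below 0 in 32 members, with a median of -0.44 against -0.01 over all genes. The 8 were 5 of 8 GTPases, 2 of 3 membrane factors and 1 of 10 effectors.

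The largest differences in log2 fold change, chimeras minus 3-week-old mice, were -3.36 ± 0.48 for Ifitm2 (adjusted p = 6.89e-04), -2.30 ± 0.36 for Iigp1 (adjusted p = 0.00146), -1.66 ± 0.33 for Gbp2 (adjusted p = 0.00855) and -1.44 ± 0.22 for Gbp3 (adjusted p = 0.00112). Igtp, Isg20, Ifitm3 and Gbp7 also passed, although the call of Gbp7 was lost in 13 of 23 settings. Gbp2, Gbp3, Ifitm2, Igtp and Iigp1 were called in every leave-one-out fit. The count fell to 5 without RISP_WT replicate 1, RISP_Chimera_WT replicate 2 or RISP_Chimera_KO replicate 4, rose to 12 without RISP_KO replicate 1, and was 4 (Gbp3, Ifitm2, Iigp1 and Isg20) without RISP_Chimera_KO replicates 2 and 4. Setting, age and library kit (Takara SMART-Seq v4 with Nextera XT in 3-week-old mice, NEBNext Ultra I in chimeras) cannot be told apart here.

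Outside the set, the interaction was more negative in 7 of 19 antigen presentation genes, in 5 of 15 signalling genes and in 5 of 62 further interferon-stimulated genes, against 2.04% of all genes. It was more positive in 0 genes of these 3 lists. Irf4 differed by -1.20 on the log2 scale, since it was higher in RISP_KO and lower in RISP_Chimera_KO than in its control.

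The 3 inhibitors were compared with the same 3 untreated libraries, so their results are not independent of one another. A few members, mostly GTPases, were lower with each inhibitor, and no member was called higher. Piericidin lowered 7 of 28 members and raised 0, against 7.93% of all genes lower and 5.62% higher. With 3-NPA 5 were lower and 0 higher, against 1.87% and 1.35%. With antimycin A 6 were lower and 0 higher, against 8.5% and 6.5%. Every treated library was below every untreated one in 9, 7 and 6 members, against 15.2%, 11.4% and 16% of all genes. Median log2 fold changes over the 28 members were -0.12, -0.23 and 0.09, and 11, 11 and 18 members were above 0.

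**Figure D4:**
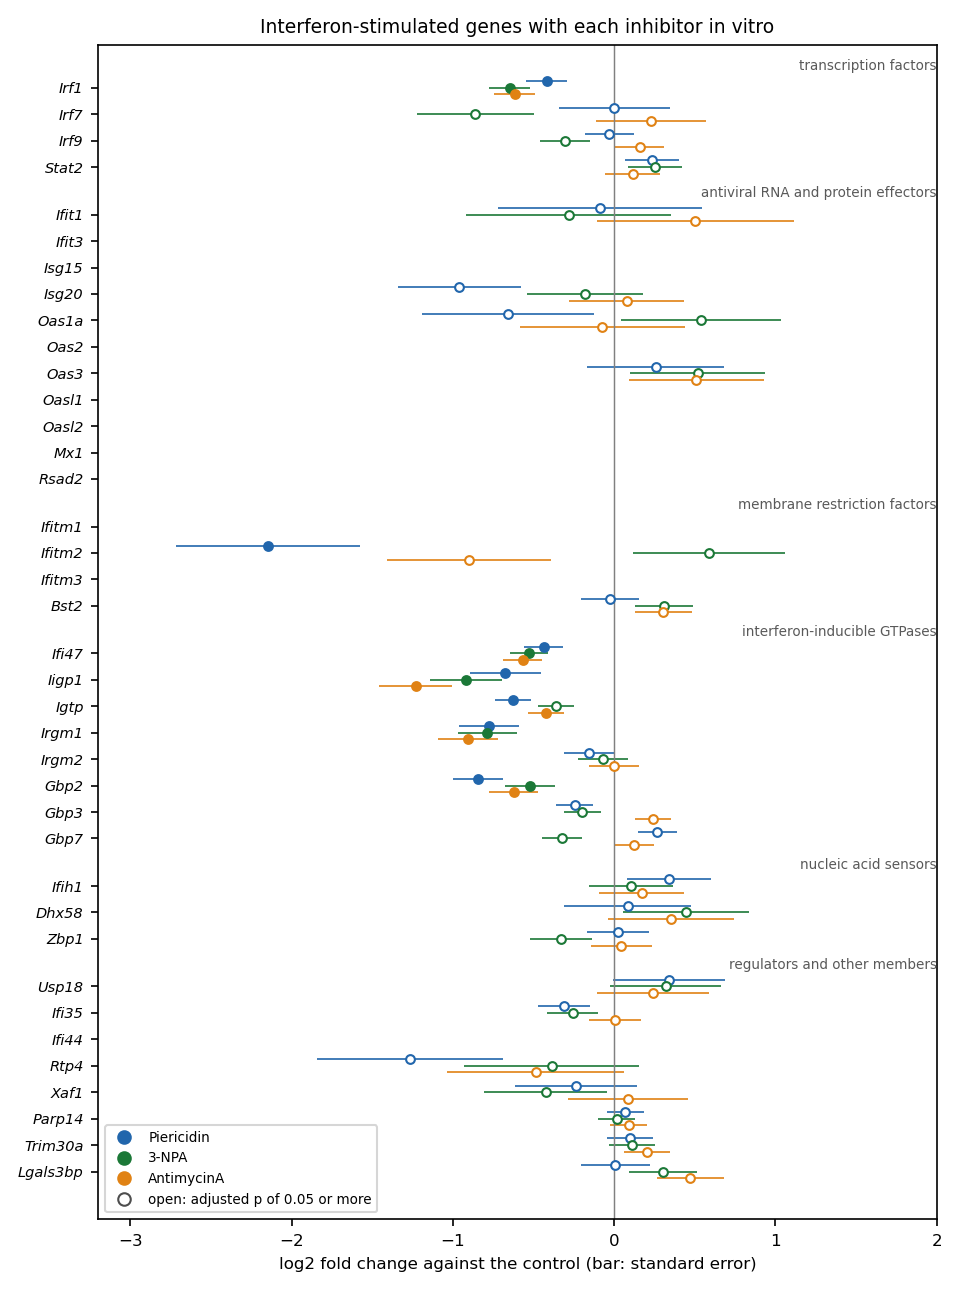
Log2 fold change of each tested member with piericidin, 3-NPA or antimycin A against untreated cells, grouped by role. Points are edgeR estimates, bars 1 SE, and filled points have an adjusted p under 0.05: 7, 5 and 6 members, all below 0.

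Igtp was at 356.7, 325.6 and 320.7 CPM in untreated replicates 1 to 3, at 259.7, 194.5 and 194.6 CPM with piericidin, at 253.0, 301.6 and 226.7 CPM with 3-NPA and at 211.5, 278.5 and 256.2 CPM with antimycin A. All treated libraries were below all untreated ones. The log2 fold changes were -0.63 ± 0.11 (adjusted p = 1.14e-04), -0.36 ± 0.11 (adjusted p = 0.0625, not called) and -0.42 ± 0.11 (adjusted p = 0.00618).

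Gbp2 was at 323.3, 288.4 and 261.8 CPM untreated, at 208.6, 136.2 and 143.0 CPM with piericidin, at 186.8, 253.4 and 169.8 CPM with 3-NPA and at 122.9, 206.4 and 237.3 CPM with antimycin A. It was lower in all 9 treated libraries. The log2 fold changes were -0.84 ± 0.16 (adjusted p = 1.72e-04), -0.52 ± 0.15 (adjusted p = 0.0489) and -0.62 ± 0.15 (adjusted p = 0.00341). Of 13 settings, the call was lost in 0 with piericidin, 9 with 3-NPA and 2 with antimycin A.

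Irgm1, an IRG protein needed for control of intracellular bacteria, was at 128.8, 122.7 and 118.0 CPM untreated, at 87.6, 58.0 and 70.1 CPM with piericidin, at 59.0, 98.9 and 57.5 CPM with 3-NPA and at 41.8, 76.6 and 77.9 CPM with antimycin A. Again no treated library reached the untreated range. The log2 fold changes were -0.78 ± 0.19 (adjusted p = 0.00308), -0.79 ± 0.18 (adjusted p = 0.0109) and -0.91 ± 0.19 (adjusted p = 4.57e-04).

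Iigp1 was more variable, at 202.9, 178.6 and 128.7 CPM untreated, 141.6, 127.5 and 52.5 CPM with piericidin, 82.5, 119.5 and 69.1 CPM with 3-NPA and 44.3, 93.4 and 78.6 CPM with antimycin A. Piericidin replicate 1 lay within the untreated range, while all 3-NPA and antimycin A libraries were below it. The log2 fold changes were -0.68 ± 0.22 (adjusted p = 0.0338), -0.92 ± 0.22 (adjusted p = 0.013) and -1.23 ± 0.23 (adjusted p = 1.12e-04).

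Ifi47 (an IRG protein) was at 326.6, 288.7 and 296.6 CPM untreated, 259.3, 236.5 and 178.1 CPM with piericidin, 181.4, 261.5 and 190.0 CPM with 3-NPA and 186.5, 204.6 and 224.0 CPM with antimycin A. Irf1 was at 205.8, 237.4 and 213.3 CPM untreated, 172.2, 163.0 and 156.1 CPM with piericidin, 120.0, 176.6 and 124.0 CPM with 3-NPA and 112.9, 158.0 and 156.5 CPM with antimycin A. In both genes every treated library was below every untreated one. The log2 fold changes of Ifi47 were -0.44 ± 0.12 (adjusted p = 0.00971), -0.53 ± 0.12 (adjusted p = 0.00771) and -0.57 ± 0.12 (adjusted p = 6.37e-04). Those of Irf1 were -0.42 ± 0.13 (adjusted p = 0.0202), -0.65 ± 0.13 (adjusted p = 0.00199) and -0.62 ± 0.13 (adjusted p = 4.63e-04).

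**Figure D5:**
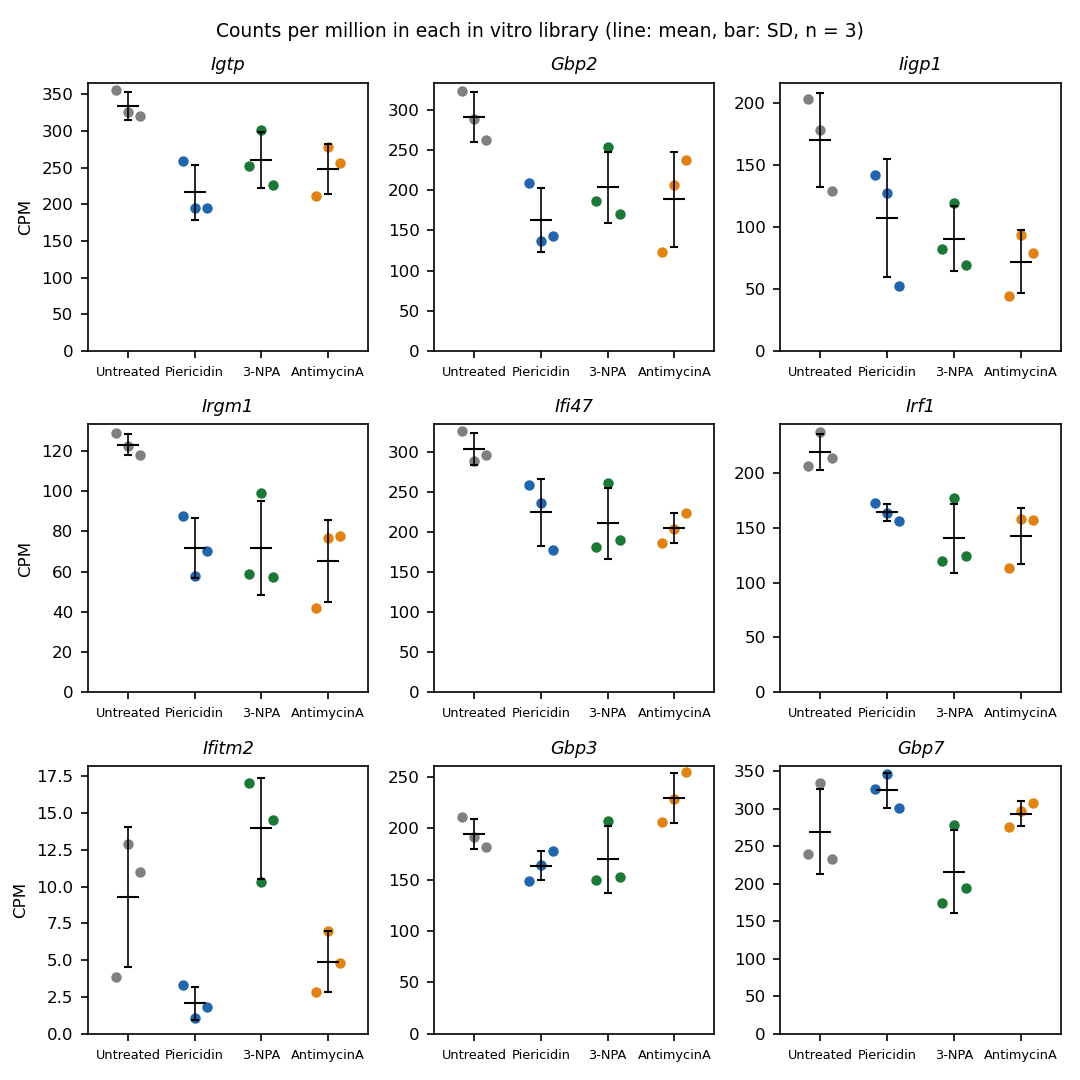
CPM on scaled library sizes of 9 members in the 12 in vitro libraries; points are libraries and bars are means ± SD (n = 3). For Irgm1 the untreated libraries sit at 118.0 to 128.8 CPM and all treated ones at or below 98.9, whereas Gbp7 overlaps between untreated and treated cells.

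Ifitm2 was called with piericidin alone, on few counts. It was at 3.88, 12.9 and 11.01 CPM untreated (12, 44 and 32 counts), 3.31, 1.09 and 1.83 CPM with piericidin (9, 3 and 6 counts), 17.1, 10.3 and 14.5 CPM with 3-NPA and 2.86, 6.99 and 4.82 CPM with antimycin A. The log2 fold change with piericidin was -2.15 ± 0.57 (adjusted p = 0.00743). Untreated replicate 1 lay near the highest piericidin library, and without untreated replicate 2 the call was lost.

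Gbp3 and Gbp7 were not called with any inhibitor against untreated cells, although Gbp7 was in some alternative runs. It was higher with piericidin without untreated replicate 2 and lower with 3-NPA without 3-NPA replicate 2. Gbp3 was at 210.4, 191.2 and 181.3 CPM untreated, 149.0, 163.7 and 178.1 CPM with piericidin, 149.7, 207.1 and 152.2 CPM with 3-NPA and 206.1, 227.9 and 254.4 CPM with antimycin A. Gbp7 was at 239.8, 334.3 and 233.3 CPM untreated, 326.3, 346.7 and 300.7 CPM with piericidin, 174.9, 278.4 and 194.8 CPM with 3-NPA and 275.1, 297.2 and 307.4 CPM with antimycin A. The 2 highest of the 12 libraries for Gbp3 were antimycin A libraries, and the 2 lowest for Gbp7 were 3-NPA libraries.

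Inhibitors were also compared directly in 3 pairs, each adjusted over all genes. Antimycin A exceeded piericidin in 1 of 28 members, Gbp3 (0.49 ± 0.11, adjusted p = 0.0254), with 0.736% of all genes called. Antimycin A exceeded 3-NPA in 2, Gbp3 (0.44 ± 0.11, adjusted p = 0.0194) and Gbp7 (0.44 ± 0.12, adjusted p = 0.0322), with 3.98% of all genes called. Against 3-NPA, piericidin was lower in Ifitm2 (-2.73 ± 0.56, adjusted p = 0.00219) and higher in Gbp7 (0.59 ± 0.12, adjusted p = 0.00304), with 4.29% of all genes called. For Iigp1, Gbp2, Igtp, Irgm1, Irf1 and Ifi47 no pair differed past the threshold with all libraries, and the differences ran up to -0.55 ± 0.23 in log2, for Iigp1 with antimycin A against piericidin (adjusted p = 0.36). Iigp1 was called lower in that pair without piericidin replicate 3 and with no filter on low counts.

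With 3 libraries in a group, these counts moved when a single library was left out. Without piericidin replicate 3 the piericidin count was 4 (Gbp2, Ifitm2, Igtp and Irgm1). Without untreated replicate 2, 5 members were lower with piericidin (Gbp2, Ifi35, Ifi47, Igtp and Irgm1) and 1 was higher (Gbp7). For 3-NPA the count was 1 (Irf1) without untreated replicate 1 or without 3-NPA replicate 1 or 3. It was 7 without 3-NPA replicate 2, with Gbp7 and Igtp then also called lower. For antimycin A the count was 4 (Ifi47, Iigp1, Irf1 and Irgm1) without its replicate 1 and 6 without any other library. The call of Gbp3 between antimycin A and piericidin was lost without piericidin replicate 1 or 2 or antimycin A replicate 2 or 3. No call between antimycin A and 3-NPA was left without 3-NPA replicate 1 or 3 or antimycin A replicate 2 or 3, and there were 4 without 3-NPA replicate 2. Between piericidin and 3-NPA the count was 4 without piericidin replicate 1, with Gbp2 and Igtp then called lower with piericidin, and 1 (Ifitm2) without 3-NPA replicate 1.

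Antigen presentation genes went the other way from the GTPases in part. Piericidin left 6 of 18 higher and 2 lower, 3-NPA 2 higher and 1 lower, and antimycin A 7 higher and 2 lower, beside the shares of all genes given above for each inhibitor. The class I gene H2-Q7 was at 404 ± 43.6 CPM untreated (SD, n = 3), 602 ± 24.9 with piericidin (0.58 ± 0.09, adjusted p = 8.51e-06), 591 ± 29.2 with 3-NPA (0.55 ± 0.09, adjusted p = 1.05e-04) and 624 ± 50.4 with antimycin A (0.63 ± 0.09, adjusted p = 9.06e-07). H2-Q genes are close copies, so their reads may be shared. H2-K1, another class I gene, was higher with piericidin (0.45 ± 0.07, adjusted p = 2.08e-05) and antimycin A (0.48 ± 0.07, adjusted p = 2.55e-06).

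Of 15 signalling genes, piericidin raised 2 and lowered 2, antimycin A raised 3 and lowered 1, and 3-NPA called 0. Over all genes piericidin raised 5.62% and lowered 7.93% and antimycin A raised 6.5% and lowered 8.5%, so about 1 call in each direction would be at the background. Irf8 was lower with piericidin (-1.11 ± 0.16, adjusted p = 3.62e-06) and antimycin A (-1.26 ± 0.16, adjusted p = 1.63e-07), and the kinase Jak2 was higher with both (0.77 and 0.76). Ifngr1, a chain of the interferon gamma receptor, was at 468 ± 12.3 CPM untreated, 702 ± 58.3 with piericidin, 509 ± 73.2 with 3-NPA and 740 ± 94.1 with antimycin A (0.59, adjusted p = 2.71e-05 with piericidin and 0.66, adjusted p = 1.80e-06 with antimycin A).

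The adaptor Myd88 was lower with piericidin (-0.61 ± 0.16, adjusted p = 0.00726) and antimycin A (-0.72 ± 0.16, adjusted p = 0.00133), where 1 (lower) and 4 (2 higher, 2 lower) of 16 sensing genes were called. With 3-NPA 1 of the 16 was called, Unc93b1, a chaperone of nucleic acid-sensing Toll-like receptors, which was higher (0.89 ± 0.23, adjusted p = 0.027), a call lost in 5 of 13 settings. Of 52 further interferon-stimulated genes, piericidin raised 6 and lowered 4, 3-NPA lowered 1, and antimycin A raised 5 and lowered 1, counts near or below the shares of all genes (5.62% and 7.93% with piericidin, 1.35% and 1.87% with 3-NPA, 6.5% and 8.5% with antimycin A) except for those raised by piericidin and antimycin A. Ly6a, a surface protein of activated lymphocytes, was at 84.9 ± 20.4 CPM untreated, 32.1 ± 7.05 with piericidin (-1.41 ± 0.19, adjusted p = 1.13e-06) and 44.4 ± 5.83 with 3-NPA (-0.94 ± 0.18, adjusted p = 0.00166). Without any 1 library this list gave 2 to 8 calls with piericidin and 2 to 7 with antimycin A.

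The members Ifitm3, Isg15, Ifit3, Oasl1, Oasl2, Oas2 and Rsad2 had too few counts in vitro to be tested. Isg15, for example, had 0, 10 and 3 counts in untreated libraries and 3 to 15 in treated ones. A difference in these members was not detectable at this depth. Markers of other cells were low or changed with treatment. The B cell markers, nearly all Ighm, summed to 490 to 550.1 CPM untreated, 276 to 292 with piericidin, 318 to 465 with 3-NPA and 349 to 451 with antimycin A, while Ms4a1 and Fcrla were at 0 in all 4 groups. Macrophage markers summed to 22.2 to 29.9 CPM in all groups, with C1qb, C1qc and Fcgr1 at 0. T cell markers summed to 3804 to 4027 CPM untreated, 3967 to 4059 with piericidin and 4011 to 4215 with antimycin A. With 3-NPA they summed to 3368 to 3696 CPM, below the untreated libraries. The part of Ighm and of the T cell markers in the results was not tested.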

How the data were processed

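The authors deposited raw read counts per Ensembl gene and library in 3 tables used here. Per the submitters' processing notes, bcl2fastq, TopHat, HTSeq and edgeR were used with mm10; versions, the strand setting and the treatment of reads that fit several genes are not given in the sources used here. Per the labels' protocols, libraries of 3-week-old RISP_WT and RISP_KO mice were made with the Takara kit and all others with the NEB kit. Another deposited table has 11 columns whose names match no label, and it was left out. Of the 43430 gene IDs, 42462 had a symbol, and 0 libraries were duplicates.

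All fits used edgeR 4.0.16 in R 4.3.3 (filterByExpr by group, TMM factors, quasi-likelihood F-test, prior count 0.125, Benjamini-Hochberg over all genes tested, called at an adjusted p under 0.05) and limma 3.58.1. Each knockout comparison was fitted in its own table, the inhibitors over 12 libraries together and the genotype by setting interaction over 16, giving 9 comparisons. Values per library are CPM on TMM-scaled library sizes. Each SE was taken as the log2 estimate over the square root of F. Coefficients of variation between libraries were 21.6%, 20.5% and 14.7%. Levels per kilobase use exon unions of GENCODE M21. Promoters are from RefSeq. Alternatives were DESeq2 1.42.0, RLE in place of TMM, no or a 1 CPM filter on low counts, blocking on replicate number, fitting only the groups compared, leaving out libraries, and unscaled library sizes.

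The members and lists were chosen with earlier results of these data known. Values in every library are given for the 6 or fewer called members of smallest p in each comparison with a control (up to 3 where none was called) and up to 4 in each other comparison, and up to 3 called genes are named per pathway list. Other members and the in vitro values of Gbp3 and Gbp7 beyond the pairs were described after their values were seen. Some genes are not reported here. The tests were checked on simulated counts with known changes. Changes of 1.5-fold were recovered in 23.3% for RISP_KO, 40.3% for chimeras, 21.1% for antimycin A and 7.81% for the difference of the knockout effects. Those of 2-fold were recovered in 67.6%, 72.7%, 77.3% and 43.5%. A member that was not called may therefore still have changed by such amounts.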

Additional observations from a re-analysis of the deposited data

Results flagged for a closer look

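Ifi44 stood at 9.13 CPM in RISP_Chimera_KO replicate 3, far from the other 3 knockout libraries at 5.49 to 5.81 CPM. The gap took up more of the group's range than Dixon's critical value allows. This was looked for in 50 groups of 4 libraries, and chance gives about 1 in 20.

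The knockout effect differed between chimeras and 3-week-old mice, by the interaction term in edgeR, for 8 members. The differences in log2 fold change, chimeras minus 3-week-old mice, were -3.36 for Ifitm2, -2.30 for Iigp1, -1.96 for Ifitm3, -1.66 for Gbp2, -1.44 for Gbp3, -1.04 for Isg20, -1.03 for Igtp and -0.76 for Gbp7. The adjusted p was 0.0245 for Ifitm3, 0.0235 for Isg20, 0.0186 for Igtp and 0.04 for Gbp7. Of 23 settings, the call was lost in 13 for Gbp7, 5 for Isg20, 4 for Ifitm3 and 1 each for Igtp and Gbp2. Setting, age and library kit cannot be told apart.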

How the results depend on the processing

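No result changed sign under any alternative run. Members called were 13 in RISP_KO (12 to 16 under other settings, 9 to 19 without 1 library) and 6 with antimycin A (5 to 6, and 4 to 6). In chimeras 0 were called, also without any 1 library, and 1 without RISP_Chimera_KO replicates 2 and 4. Piericidin gave 7 (4 to 7 without 1 library). For 3-NPA, 5 became 3 with DESeq2 and 1 to 7 without 1 library. The difference of the knockout effects gave 8, then 4 without RISP_Chimera_KO replicates 2 and 4, and 5 to 12 without 1 library. Antimycin A against piericidin gave 1, then 2 with no filter and 0 to 2 without 1 library; antimycin A against 3-NPA gave 2 (0 to 4); piericidin against 3-NPA gave 2, then 1 with DESeq2 and 1 to 4 without 1 library. The causes were not tested. A fit that leaves a library out has fewer samples.

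With the replicate number as a block, members called were 12, 0, 8, 6, 6, 8, 1, 2 and 2 in the 9 comparisons, the 8 with piericidin were the 7 lower ones and Gbp7 higher, and the 6 with 3-NPA added Igtp. The labels do not say that a number marks a shared mouse or batch, and the numbers were not taken to pair libraries. Correlations of same-numbered libraries were -0.04 to 0.03 for 3-week-old mice, -0.10 to 0.13 for chimeras, and 0 to 0.09 for the cultured cells. There 17 of 18 were highest with their own number, a hint from the data that same-numbered cultures share some variation.

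Over all genes, RISP_KO gave 1364 calls, 2068 with DESeq2 and 895 with the block. Chimeras gave 102, then 446 with DESeq2, 208 with no filter and 247 without the 2 libraries. The difference gave 509, then 854, 324 with the block and 319 without the 2. With no scaling of library sizes, chosen after seeing the data, the genes called higher with 3-NPA moved from 158 of 377 to 209 of 350, and in the difference from 191 of 509 to 234 of 489.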
